A study of Mus musculus with 6 samples.

Results

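The sorting and fusion machinery described here comprises 47 genes whose products carry enzymes and membranes to the lysosome, out of 30063 genes measured. The members were given as a list of gene names, and for each gene the probe set that names that gene alone was read, or the brightest of these on average over the 6 arrays where there were several. All 47 had such a probe set. RNA came from epidermal sheets of E18.5 mouse embryos and was read on 3 arrays for Rptor cKO and 3 for wild-type littermates. Rptor cKO is a conditional knockout of the gene for Raptor, the subunit that recruits substrates to the kinase complex mTORC1. Embryos were sorted by appearance and checked by genotyping. The Cre driver, the deleted exons, and whether an array holds RNA of a single embryo are details the labels leave out. The series design calls the samples biological replicates and asks whether lysosomal genes are lower without Raptor.

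Newly made lysosomal enzymes receive a mannose 6-phosphate tag in the Golgi, are bound there by sorting receptors, and leave in clathrin coated carriers built with GGA and AP-1 adaptors. AP-3 and the BLOC complexes route membrane proteins to lysosomes and to related organelles such as melanosomes, and loss of their subunits causes Hermansky-Pudlak syndrome in people and pigment defects in mice. Endosomes and lysosomes are then tethered by the CORVET and HOPS complexes and fused by SNARE proteins, while retromer returns the receptors and the PIKfyve complex makes a phosphoinositide that late endosomes need to keep their size. In the epidermis, lysosomes and related organelles also take part in the turnover of surface receptors and in the release of barrier lipids.

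Values are the authors' RMA values on the log2 scale, and differences are Rptor cKO minus wild type. A gene was called where the moderated test of limma had a Benjamini-Hochberg adjusted p under 0.05 over all 30063 genes. Rptor read 6.69 ± 0.14 over the Rptor cKO arrays and 7.15 ± 0.27 over the wild-type arrays (mean ± SD, n = 3 each), a difference of -0.46 (SE 0.15, adjusted p = 0.0988). It did not pass the test, so the arrays are a weak check of the genotype. The keratinocyte markers Krt5 and Krt14 read 10.37 or more on every array. By Xist and Y-linked genes, 2 of the Rptor cKO arrays (1 and 3) came from female embryos and the other 4 arrays from males. On every array all 47 members were brighter than the median negative control (3.81 to 4.11), and 2 were brighter than 95% of the negative controls (cut at 7.46 to 8.07). Both upper ends are those of Rptor cKO array 1, and the other arrays reached 3.87 and 7.79.

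Of the 47 genes, 12 were lower in Rptor cKO, 2 were higher and 33 did not pass the test. The members were chosen with earlier results of these data known, so counts set against all genes are a description. Over all genes, 5.96% were called lower (1791) and 3.64% higher (1095), or 1825 and 585 genes with array medians subtracted. The members called lower were Lyst, Sort1, Fig4, Vps33a, Vps41, Vti1b, Plekhm1, Ap3s1, Ap1b1, Bloc1s2, Vamp8 and Nagpa, and those called higher were Ap1m1 and Igf2r. The difference was below 0 for 40 members and above 0 for 7, with a median of -0.24, against a median of 0.050 over all genes. Over all 30063 genes it was below 0 for 11549 and above 0 for 18514. Lyst, Sort1 and Fig4 fell by more than 2-fold, and no member rose by 2-fold. For 24 members all 3 Rptor cKO arrays lay below all 3 wild-type arrays, as they did for 12.5% of all genes. For 2 members they lay above, as for 16.5% of all genes. Among the 20438 genes that read above the negative control median on at least 3 arrays, as all 47 members did, 9.19% were called lower and 5.39% higher in a fit of those genes alone, and 13 and 2 of the members. At an unadjusted p under 0.05 in limma, 22 members were lower and 2 higher, against 11.4% and 11.9% of all genes. An ordinary linear model called 0 members after adjustment, against 2 lower and 6 higher of all genes. At an unadjusted p under 0.05 that model had 18 members lower and 2 higher, against 8.85% and 10.4% of all genes. With Rptor cKO array 2 left out, 4 members were called lower and 1 higher in limma, against 623 and 277 of all genes. Without Rptor cKO array 1 or wild-type array 6, 6 members were called lower, against 1115 and 1175 of all genes. With the male arrays alone, 1 Rptor cKO array against the 3 of wild type, 4 members were called lower and 0 higher in limma, against 2.08% and 0.805% of all genes. At an unadjusted p under 0.05, 17 and 2 were lower and higher on those arrays, against 8.19% and 8.25% of all genes. In bulk tissue, fewer cells of a kind and less RNA per cell cannot be told apart.

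**Figure D1:**
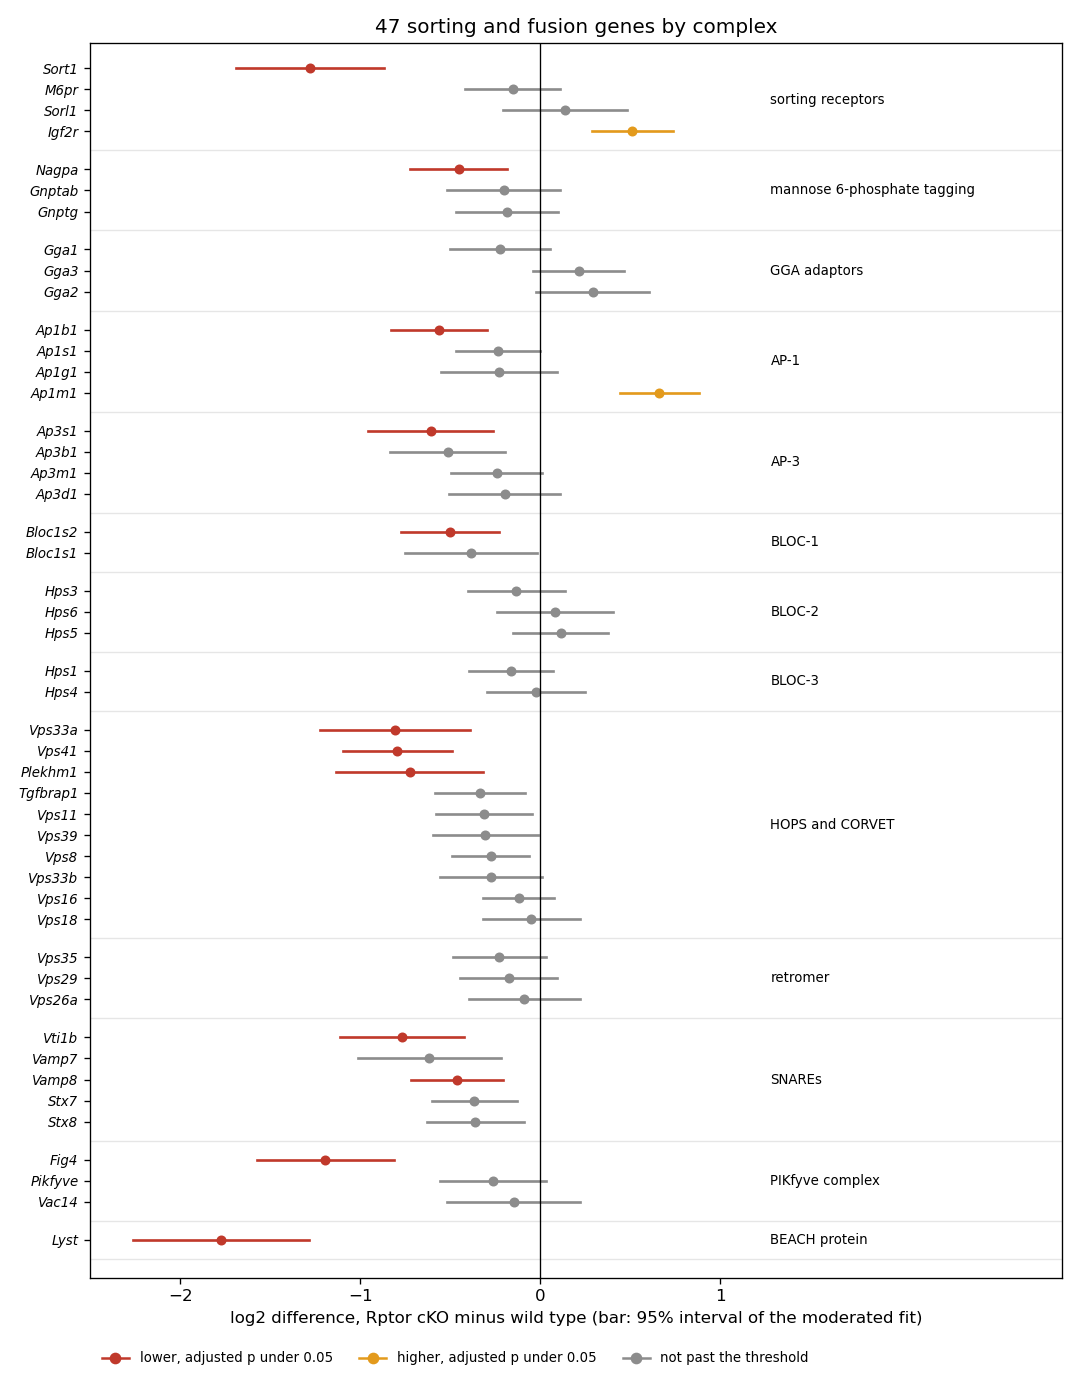
Log2 difference (Rptor cKO minus wild type, x axis) of each of the 47 genes, grouped by complex, with the 95% interval of the moderated fit as a bar. Red marks the 12 genes called lower, orange the 2 called higher and grey the rest. The points of 40 genes lie left of 0. Points right of 0 occur only among the sorting receptors, the GGA adaptors, AP-1 and BLOC-2.

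MiT/TFE factors, which the series title names, switch on lysosomal genes by binding an E-box with the core CACGTG, best known in the palindrome with GT before the core and AC after it, and also bind the related M-box TCATGTGA. These letters were sought on both strands in RefSeq promoters (GRCm38.p6, 250 bases before to 50 after the annotated start, counted from 0 at the first transcribed base), of which 38 member genes had 44. The longer E-box forms contain the shorter ones. The 10-letter palindrome was present for 5 of the 38 genes, against 0.370% of 27025 genes with a promoter and 0.469% of 17491 protein-coding genes. The form TCACGTGA was present for 8 of 38 members, against 1.12% of all genes and 1.41% of protein-coding genes. The core CACGTG was present for 14 of 38, against 8.09% and 8.91%, and the M-box for 3 of 38, against 1.15% and 1.00%. A match is a run of letters, not a measured binding site, and gene promoters differ in base composition.

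The promoters of Igf2r and Vps33a are shown because both hold the palindrome close to the start and both genes changed, in opposite directions. Letters of an E-box or M-box match are in capitals. Igf2r (chr17:12769657-12769956, minus strand) holds an M-box at -92, the 8-letter E-box at -49 and the palindrome at -9, and Vps33a (chr5:123572966-123573265, minus strand) holds the 8-letter E-box at -29 and the palindrome at -14.
Igf2r promoter: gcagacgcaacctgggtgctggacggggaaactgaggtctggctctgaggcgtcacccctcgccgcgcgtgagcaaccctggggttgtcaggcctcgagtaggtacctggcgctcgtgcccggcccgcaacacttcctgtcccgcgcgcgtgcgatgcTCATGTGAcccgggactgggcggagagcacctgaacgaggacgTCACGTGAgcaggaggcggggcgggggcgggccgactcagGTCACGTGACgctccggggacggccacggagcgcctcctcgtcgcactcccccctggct
Vps33a promoter: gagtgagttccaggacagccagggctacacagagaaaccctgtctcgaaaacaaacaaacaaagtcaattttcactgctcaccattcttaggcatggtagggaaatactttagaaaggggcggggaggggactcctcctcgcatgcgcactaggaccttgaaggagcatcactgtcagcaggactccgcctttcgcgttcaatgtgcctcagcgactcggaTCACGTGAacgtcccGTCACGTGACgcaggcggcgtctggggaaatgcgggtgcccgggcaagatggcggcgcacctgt

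The palindrome in the promoters of Vps16, Vac14 and Vps26a, which did not pass the test, and the M-box of Vps41, which was lower, are shown with 15 bases on either side where the window allows. Their first bases lie at -20 for Vps16 (chr2:130424285-130424324, plus strand), 29 for Vac14 (chr8:110618581-110618616, plus strand), -184 from the upstream start of Vps26a (chr10:62486965-62487004, minus strand) and 1 for Vps41 (chr13:18717278-18717315, plus strand, where the M-box is read on the other strand).
Vps16 E-box: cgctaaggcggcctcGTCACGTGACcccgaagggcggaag
Vac14 E-box: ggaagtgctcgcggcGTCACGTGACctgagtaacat
Vps26a E-box: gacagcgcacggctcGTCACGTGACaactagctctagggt
Vps41 M-box: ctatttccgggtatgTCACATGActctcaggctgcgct
A further palindrome lies at -153 from the downstream start of Vps26a. Of the 10 members called lower that had a promoter entry, 1 held the palindrome (Vps33a) and 2 the core CACGTG (Vps33a and Nagpa). Of the 27 that did not pass the test, 3 held the palindrome and 11 the core. The member called higher with an entry, Igf2r, held both.

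**Figure D2:**
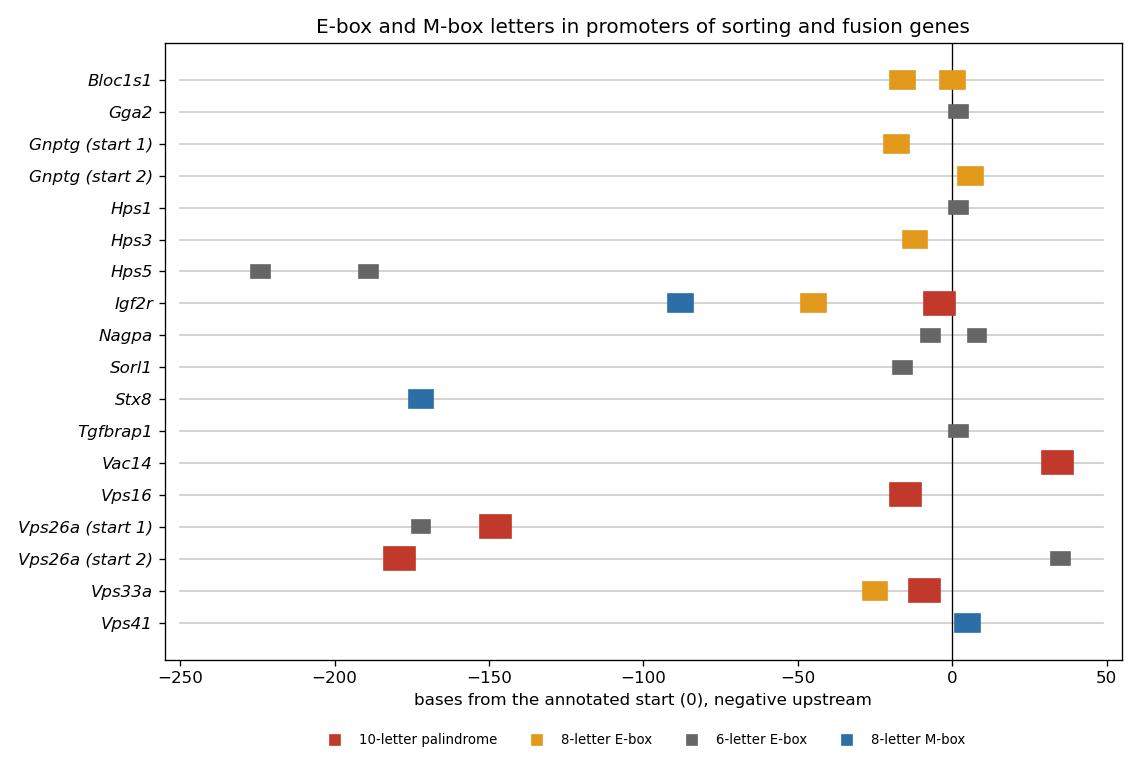
Position of E-box and M-box letters (coloured boxes) in the promoters of the member genes that hold any, in bases from the annotated start (x axis, negative upstream). Several matches lie within 50 bases of the start, among them the palindromes of Igf2r, Vps16 and Vps33a.

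Among the sorting receptors, Igf2r was higher and Sort1 lower in Rptor cKO. Igf2r (chromosome 17, 12682406 to 12769706, mm10) encodes the large mannose 6-phosphate receptor, which also clears the growth factor IGF2 from the cell surface. It read 6.99, 6.89 and 6.92 on the Rptor cKO arrays, against 6.27, 6.51 and 6.48 on the wild-type arrays. The Rptor cKO arrays lay in a narrow band above all wild-type arrays, a rise of 1.43-fold, or 0.51 (SE 0.10, adjusted p = 0.0153). M6pr, the smaller cation-dependent receptor for the same tag, read 7.74 ± 0.089 over the Rptor cKO arrays and 7.90 ± 0.19 over the wild-type arrays (mean ± SD, n = 3 each), a difference of -0.15 with a 95% interval of -0.42 to 0.11. Sort1 (chromosome 3, 108283974 to 108361519) encodes sortilin, which carries some lysosomal proteins without the tag. Sort1 read 6.58, 6.87 and 7.37 on the Rptor cKO arrays, against 8.27, 8.21 and 8.17 on the wild-type arrays. The wild-type arrays were close to each other, the Rptor cKO arrays were spread over 0.78 log2 units below them, and the fall was 2.42-fold, or -1.28 (SE 0.18, adjusted p = 0.00541). Its relative Sorl1 overlapped between the groups, at 0.14 (SE 0.15, adjusted p = 0.640). The call of Igf2r was lost without Rptor cKO array 1 (0.49, adjusted p = 0.0505) and without Rptor cKO array 2 (0.53, adjusted p = 0.0613).

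The enzymes that make the mannose 6-phosphate tag all had differences below 0, as did 11549 of all 30063 genes. Gnptab and Gnptg, subunits of the phosphotransferase that starts the tag, differed by -0.20 (SE 0.14) and -0.18 (SE 0.12), and neither passed the test (adjusted p = 0.431 and 0.429). Nagpa (chromosome 16, 5195280 to 5204032), the enzyme that uncovers the tag, read 5.64, 5.95 and 5.95 on the Rptor cKO arrays, against 6.43, 6.26 and 6.21 on the wild-type arrays. Its groups did not overlap, and the fall of 1.37-fold was just past the threshold, at -0.45 (SE 0.12, adjusted p = 0.0482). Leaving out any of the 6 arrays ended that call, with differences from -0.51 to -0.35 and adjusted p from 0.0675 to 0.123.

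The GGA adaptors, which recruit clathrin to the receptors, did not pass the test in limma for any of the 3 genes. At an unadjusted p under 0.05 the count was 0 of 3, where 11.4% of all genes were lower and 11.9% higher. An ordinary linear model also called 0 of 3 after adjustment, but it called just 2 lower and 6 higher of all genes. Gga2 had the smallest p of the 3 and read 6.88, 7.12 and 7.15 on the Rptor cKO arrays, against 6.52, 6.98 and 6.77 on the wild-type arrays, a difference of 0.29 (SE 0.14, adjusted p = 0.246). Wild-type array 5 overlapped the Rptor cKO arrays. Gga3 differed by 0.21 and Gga1 by -0.22, on both sides of 0.

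In AP-1, the heterotetramer that packs clathrin carriers at the Golgi and recycling endosomes, subunits moved in opposite directions. Ap1m1 (chromosome 8, 72240013 to 72257386), the widely expressed medium subunit, read 7.51, 7.69 and 7.57 on the Rptor cKO arrays, against 6.82, 6.99 and 6.97 on the wild-type arrays. Every Rptor cKO array was above every wild-type array, a rise of 1.58-fold, or 0.66 (SE 0.10, adjusted p = 0.00595). Ap1b1 (chromosome 11, 4947320 to 5042794), a large subunit, read 7.23, 7.49 and 7.62 on the Rptor cKO arrays, against 7.99, 8.07 and 7.97 on the wild-type arrays. It was lower on all Rptor cKO arrays, by 1.48-fold, or -0.56 (SE 0.12, adjusted p = 0.0212). The large subunit Ap1g1 and the small subunit Ap1s1 differed by -0.23 (SE 0.14, adjusted p = 0.386) and -0.23 (SE 0.10, adjusted p = 0.213). The call of Ap1b1 was lost without Rptor cKO array 2, wild-type array 5 or wild-type array 6, with differences from -0.65 to -0.45 and adjusted p up to 0.0772 over the 6 fits with an array left out.

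Paralogs and partners of AP-1 outside the 47 genes gave further falls. Ap1m2, the medium subunit of epithelial cells, read 6.81, 7.11 and 7.35 on the Rptor cKO arrays, against 7.90, 7.80 and 7.71 on the wild-type arrays, a difference of -0.71 (SE 0.14, adjusted p = 0.0177). Its wild-type arrays were all higher, the reverse of Ap1m1. The value of Ap1m1 minus that of Ap1m2 was 0.70, 0.58 and 0.21 on the Rptor cKO arrays, against -1.08, -0.81 and -0.74 on the wild-type arrays. The means of the groups were 1.38 apart. That the groups did not overlap follows from Ap1m1 lying above and Ap1m2 below the wild-type arrays on every Rptor cKO array. No test is given, since the pair was set side by side after their values were seen, and the sign of each value has no meaning by itself, since probe sets differ in brightness. The small subunit Ap1s3 fell by 0.90 (SE 0.21, adjusted p = 0.0317), while Ap1s2 differed by -0.028. Aftph and Synrg, which bind the AP-1 ear domain, fell by 0.77 and 0.66 (adjusted p = 0.00572 and 0.0135). The clathrin light chain Cltb fell by 1.07 (adjusted p = 0.00972), whereas Clta and the heavy chain Cltc differed by -0.023 and -0.22 and did not pass the test.

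**Figure D3:**
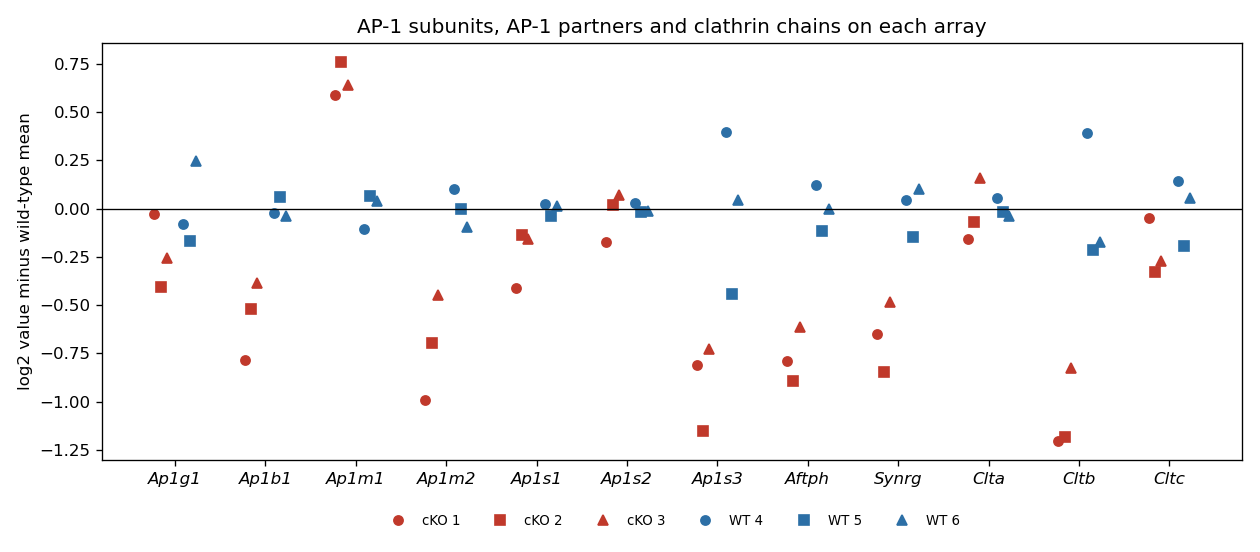
Log2 value on each array minus the wild-type mean (y axis) for AP-1 subunits, AP-1 binding partners and clathrin chains (x axis). Red symbols are the 3 Rptor cKO arrays and blue symbols the 3 wild-type arrays. Ap1m1 lies above the wild-type arrays, and Ap1m2, Ap1b1, Ap1s3, Aftph, Synrg and Cltb lie below them.

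All 4 subunits of AP-3, the adaptor that carries membrane proteins from endosomes to lysosomes, had differences below 0. Of all 30063 genes, 11549 did. The small subunit Ap3s1 read 5.28, 4.93 and 5.37 on the Rptor cKO arrays, against 5.90, 5.54 and 5.95 on the wild-type arrays. The groups did not overlap, and Ap3s1 was lower by 1.52-fold, or -0.61 (SE 0.15, adjusted p = 0.0425). Ap3b1, the large subunit mutated in the pearl mouse, read 6.58, 6.42 and 6.65 on the Rptor cKO arrays, against 7.14, 6.78 and 7.27 on the wild-type arrays. It was also lower on all 3 Rptor cKO arrays but just missed the threshold, at -0.51 (SE 0.14, adjusted p = 0.0570). Ap3m1 and Ap3d1, the subunit mutated in the mocha mouse, differed by -0.24 and -0.20. Leaving out Rptor cKO array 1 or 2 or wild-type array 4 or 6 ended the call of Ap3s1 (differences from -0.74 to -0.48 and adjusted p up to 0.147 over the 6 fits), and Ap3b1 was called without wild-type array 5 (-0.66, adjusted p = 0.0184). The AP-3 paralogs Ap3b2, Ap3m2 and Ap3s2 differed by 0.10, 0.017 and -0.089, and none was called.

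Of the BLOC complexes, a call was made in BLOC-1 alone. In BLOC-1, which works with AP-3 on endosomes, Bloc1s2 (chromosome 19, 44139246 to 44146470) read 6.96, 7.09 and 7.37 on the Rptor cKO arrays, against 7.58, 7.65 and 7.69 on the wild-type arrays. It was lower on all Rptor cKO arrays, by 1.41-fold, or -0.50 (SE 0.12, adjusted p = 0.0353). A second probe set, shared with the pseudogene Bloc1s2-ps and not used above, differed by -0.75. Bloc1s1 overlapped between groups, at -0.38 (SE 0.16, adjusted p = 0.195). The call of Bloc1s2 was lost with any array left out besides Rptor cKO array 3, with differences from -0.61 to -0.41 and adjusted p up to 0.137.

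No gene of BLOC-2 (Hps3, Hps5 and Hps6) or of BLOC-3 (Hps1 and Hps4), the exchange factor for the melanosome GTPases RAB32 and RAB38, passed the test in limma. At an unadjusted p under 0.05 the count was also 0 of 5, where 11.4% of all genes were lower and 11.9% higher. The ordinary linear model called 0 of 5 after adjustment, but it called just 2 lower and 6 higher of all genes, so this adds little. Hps3, with the smallest p in BLOC-2, read 4.72, 4.71 and 4.63 on the Rptor cKO arrays, against 4.81, 4.62 and 5.03 on the wild-type arrays. Hps1, with the smallest p in BLOC-3, read 5.64, 5.73 and 5.85 on the Rptor cKO arrays, against 5.82, 6.03 and 5.85 on the wild-type arrays. In both genes the groups overlapped, with differences of -0.13 (95% interval -0.40 to 0.14) and -0.16 (95% interval -0.39 to 0.072). Hps5 differed by 0.12, Hps6 by 0.085 and Hps4 by -0.022. Of 6 melanocyte markers, Dct, Tyrp1, Tyr, Pmel, Mlana and Slc45a2, none passed the test in limma. At an unadjusted p under 0.05, 3 were higher, as 11.9% of all genes were. The ordinary linear model called 0 of these markers after adjustment, with the same limit. Their mean level ran from 7.10 to 7.78 on the Rptor cKO arrays and from 6.67 to 7.36 on the wild-type arrays, with differences of 0.14 to 0.64. The part of melanocytes in the differences of the AP-3, BLOC and Lyst genes was not tested.

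All 10 genes of the HOPS and CORVET group, which tether endosomes before fusion, had differences below 0. Of all 30063 genes, 11549 did. In the group of 10, 3 were called lower, against 5.96% of all genes. Vps33a (chromosome 5, 123528757 to 123573043), the SNARE-binding subunit of the shared core, read 7.12, 7.56 and 7.84 on the Rptor cKO arrays, against 8.10, 8.42 and 8.40 on the wild-type arrays. It was lower on every Rptor cKO array, by 1.75-fold, or -0.81 (SE 0.18, adjusted p = 0.0285). Vps41 (chromosome 13, 18717292 to 18866811), a subunit of HOPS but not CORVET, read 5.64, 5.33 and 5.59 on the Rptor cKO arrays, against 6.18, 6.22 and 6.55 on the wild-type arrays. The gap between the groups was 0.55 log2 units, and the fall was 1.73-fold, or -0.79 (SE 0.13, adjusted p = 0.00963). Plekhm1 (chromosome 11, 103364275 to 103412705), an adaptor between the GTPase RAB7 and HOPS, read 6.74, 6.83 and 6.99 on the Rptor cKO arrays, against 7.99, 7.48 and 7.26 on the wild-type arrays. Its spread was wider in wild type (SD 0.38, against 0.13 in Rptor cKO), and it fell by 1.65-fold, or -0.72 (SE 0.18, adjusted p = 0.0403).

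The other 7 tethering genes did not pass the test, with differences from -0.34 for Tgfbrap1 to -0.049 for Vps18. The shared core subunits Vps11, Vps16 and Vps18 differed by -0.31, -0.12 and -0.049, less than Vps33a of the same core. Of the CORVET subunits, Tgfbrap1 and Vps8 (-0.28) read below wild type on all Rptor cKO arrays but did not pass the test, with adjusted p = 0.103 and 0.113. The HOPS subunit Vps39 differed by -0.30, against -0.79 for Vps41, and Vps33b, which pairs with VIPAS39 outside HOPS, by -0.27. Whether these members differ from each other in their response was not tested. The call of Vps41 held with any of the 6 arrays left out (adjusted p up to 0.0494). The call of Vps33a was lost without Rptor cKO array 2 or wild-type array 5 or 6 (adjusted p up to 0.0978), and that of Plekhm1 without any of the Rptor cKO arrays or wild-type array 5 (adjusted p up to 0.140). The differences ran from -0.97 to -0.61 for Vps33a and from -0.88 to -0.52 for Plekhm1 in those fits. Both calls were also lost with quantile normalization.

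In retromer, which returns sorting receptors from endosomes to the Golgi, none of the 3 subunits passed the test in limma. At an unadjusted p under 0.05 the count was 0 as well, where 11.4% of all genes were lower and 11.9% higher. The ordinary linear model called 0 of the 3 after adjustment, but it called just 2 lower and 6 higher of all genes. Vps35, the scaffold, read 8.22, 7.98 and 8.10 on the Rptor cKO arrays, against 8.21, 8.27 and 8.50 on the wild-type arrays. The groups overlapped by a narrow margin, with a difference of -0.23 and a 95% interval of -0.48 to 0.032. Vps29 and Vps26a differed by -0.18 and -0.088.

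All 5 SNAREs of late endosome fusion lay lower on every Rptor cKO array than on any wild-type array, as 12.5% of all genes did. Of the 5, 2 were called lower, against 5.96% of all genes. Vti1b (chromosome 12, 79156017 to 79172685) read 6.01, 6.18 and 6.38 on the Rptor cKO arrays, against 7.25, 6.77 and 6.85 on the wild-type arrays. It fell by 1.70-fold, or -0.77 (SE 0.15, adjusted p = 0.0168). A dimmer second probe set of Vti1b differed by -0.13, and with both averaged Vti1b was at -0.45 and not called (adjusted p = 0.169). Vamp8 (chromosome 6, 72385221 to 72390667), the SNARE of lysosome and autophagosome fusion, read 8.08, 7.99 and 8.34 on the Rptor cKO arrays, against 8.64, 8.52 and 8.62 on the wild-type arrays. The Rptor cKO arrays were lower by 1.38-fold, or -0.46 (SE 0.11, adjusted p = 0.0384). Vamp7, which is X-linked in mice and serves lysosome exocytosis, read 5.51, 5.01 and 5.26 on the Rptor cKO arrays, against 5.95, 5.55 and 6.12 on the wild-type arrays. The nearest arrays of the groups were 0.047 apart, and it missed the threshold at -0.62 (SE 0.17, adjusted p = 0.0633). Syntaxins Stx7 and Stx8 differed by -0.37 (SE 0.10, adjusted p = 0.0663) and -0.36 (SE 0.12, adjusted p = 0.102). Their nearest arrays were 0.12 and 0.032 log2 units apart. The call of Vti1b was lost without Rptor cKO array 1 (-0.68, adjusted p = 0.0510) or 2 (-0.76, adjusted p = 0.0752), and that of Vamp8 without any array besides Rptor cKO array 3 (-0.56 to -0.39, adjusted p up to 0.152).

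Lyst and Fig4, regulators of late endosome and lysosome size, had 2 of the 3 strongest falls of the 47 genes, with Sort1 between them. Lyst (chromosome 13, 13590311 to 13778803), the BEACH domain protein lost in the beige mouse and in Chediak-Higashi syndrome, where lysosomes become giant, read 5.39, 5.40 and 5.99 on the Rptor cKO arrays, against 7.68, 6.99 and 7.43 on the wild-type arrays. The groups were 1.00 log2 units apart at their nearest arrays, a fall of 3.42-fold, or -1.77 (SE 0.21, adjusted p = 0.00320). Fig4 (chromosome 10, 41188172 to 41303241), the phosphatase that acts in the PIKfyve complex and is mutated in the pale tremor mouse, read 5.79, 5.84 and 6.27 on the Rptor cKO arrays, against 7.26, 6.88 and 7.35 on the wild-type arrays. It fell by 2.29-fold, or -1.19 (SE 0.17, adjusted p = 0.00515). Its partners Pikfyve, the lipid kinase, and Vac14, the scaffold, differed by -0.26 (SE 0.13, adjusted p = 0.275) and -0.15 (SE 0.16, adjusted p = 0.650). With any of the 6 arrays left out, Lyst stayed between -1.97 and -1.61 and Fig4 between -1.34 and -1.10, both still called. Lyst, Fig4, Sort1, Vps41 and Ap1m1 were the 5 members whose calls held in all 6 such fits.

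**Figure D4:**
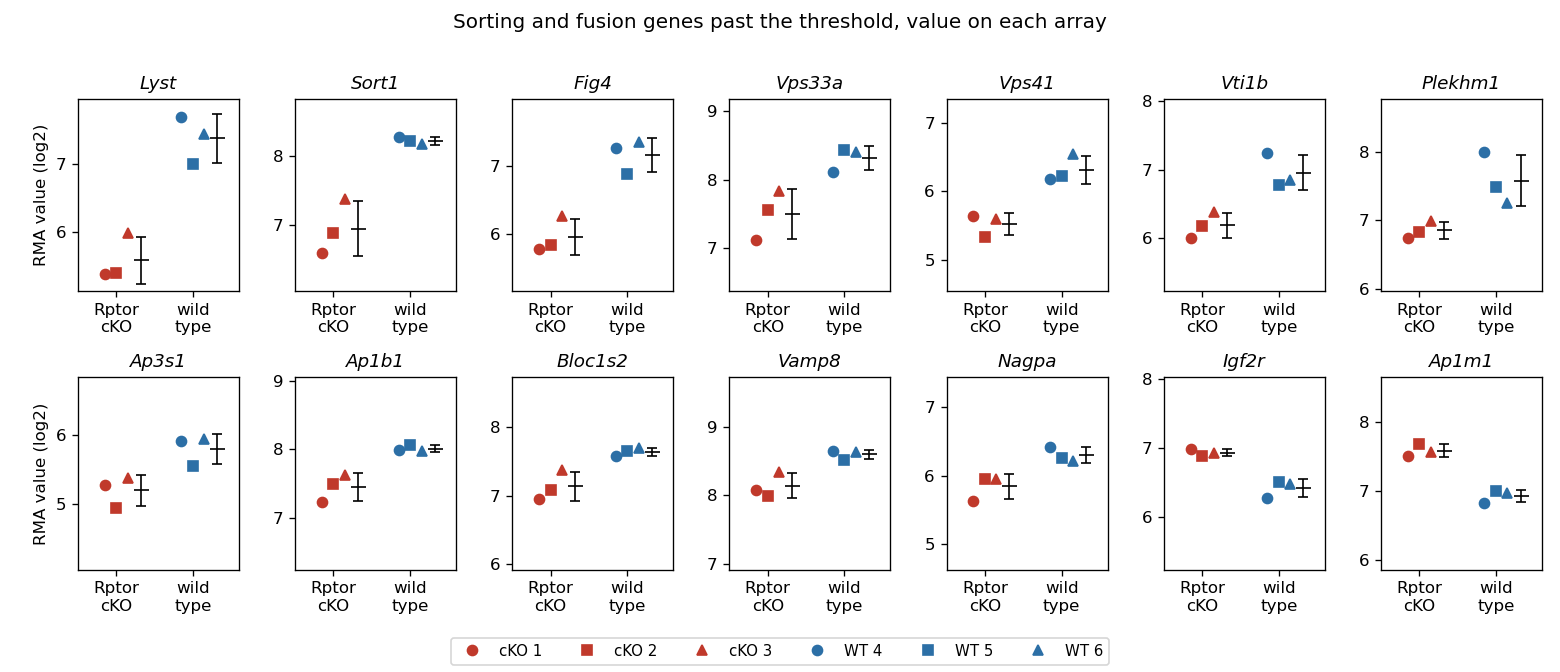
RMA value (log2, y axis) on each of the 6 arrays for the 14 genes past the threshold, with Rptor cKO in red at the left and wild type in blue at the right of each panel. Black bars give the mean and SD of 3 arrays, and all panels span the same range. The groups overlap in none of the 14, which were picked by the test for a difference large beside the spread. Rptor cKO array 3 (triangle) is not the lowest Rptor cKO array for any of the 12 lower genes.

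Related genes of sorting and fusion outside the 47 genes were called lower as well. They were listed with earlier results of these data known, so their counts are a description and not a test. Of 48 such genes listed, 44 were measured, and 13 were lower, none higher and 31 not called in limma. Of all genes, 5.96% were called lower and 3.64% higher. How these calls fare with an array left out is not given. At an unadjusted p under 0.05, 22 were lower and 0 higher, where 11.4% and 11.9% of all genes were. An ordinary linear model called 0 after adjustment, against 2 lower and 6 higher of all genes. Their median difference was -0.30. The largest fall was that of Snap29, a SNARE that fuses autophagosomes with lysosomes and is lost in a human ichthyosis syndrome. Snap29 read 6.54, 6.81 and 7.39 on the Rptor cKO arrays, against 8.65, 8.05 and 8.13 on the wild-type arrays, a fall of 2.57-fold, or -1.36 (SE 0.23, adjusted p = 0.0104). Both measured subunits of the RAB7 exchange factor were lower, Mon1a at -0.64 (SE 0.13, adjusted p = 0.0184) and Ccz1 at -0.53 (SE 0.11, adjusted p = 0.0238). The endosomal SNAREs Stx12, Stx6 and Vamp3 fell by 0.76, 0.44 and 0.47 (adjusted p = 0.0435, 0.0166 and 0.0477). Vps52 of the GARP tether fell by 0.64 (adjusted p = 0.00747), and the retromer-linked sorting nexin Snx2 fell by 0.55 (adjusted p = 0.0284). Scarb2, the sorting receptor of beta-glucocerebrosidase, missed the threshold at -0.77 (SE 0.22, adjusted p = 0.0631). Ap1m2, Ap1s3, Aftph, Synrg and Cltb, described with AP-1, completed the 13.

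Markers of the upper epidermal layers were lower on the same arrays. All 6 spinous markers (Krt1, Krt10, Krtdap, Dsg1a, Dsc1 and Calml3) and all 6 granular and cornified markers (Flg, Lor, Ivl, Tgm3, Casp14 and Flg2) were lower in Rptor cKO. Their mean levels ran from 8.58 to 10.12 in Rptor cKO and 11.18 to 11.55 in wild type for the spinous list, and from 7.25 to 8.99 in Rptor cKO and 10.20 to 11.08 in wild type for the granular and cornified list. Of 6 basal markers, Itgb4 was higher and the others were not called, with list means of 9.25 to 9.43 in Rptor cKO and 8.90 to 9.17 in wild type. The median of the 47 genes relative to their wild-type means was -0.37, -0.35 and -0.19 on Rptor cKO arrays 1 to 3, and that of the 12 lower genes was -0.81, -0.77 and -0.52. On the same arrays the median of the spinous markers was -2.31, -2.78 and -1.21, and that of the granular and cornified markers was -3.64, -2.92 and -1.39. Rptor cKO array 3 was thus the nearest to wild type in each of these groups. It was also the nearest for the fibroblast markers described below, at 0.80, 1.08 and 0.34 on Rptor cKO arrays 1 to 3. The same held for the endothelial markers, at 0.23, 0.31 and 0.019. Rptor cKO array 1 was the nearest for the basal markers (0.041, 0.27 and 0.23) and the melanocyte markers (0.18, 0.57 and 0.80). Rptor cKO array 2 was the nearest for the Langerhans and macrophage markers and the Merkel cell markers. Rptor cKO array 3 was the lowest of the Rptor cKO arrays for 2 of the 47 genes, against 34.2% of all genes. Array 1 was the lowest for 28, against 41.0% of all genes, and array 2 for 17, against 24.8%. The part of the layers in the differences of the members was not tested.

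**Figure D5:**
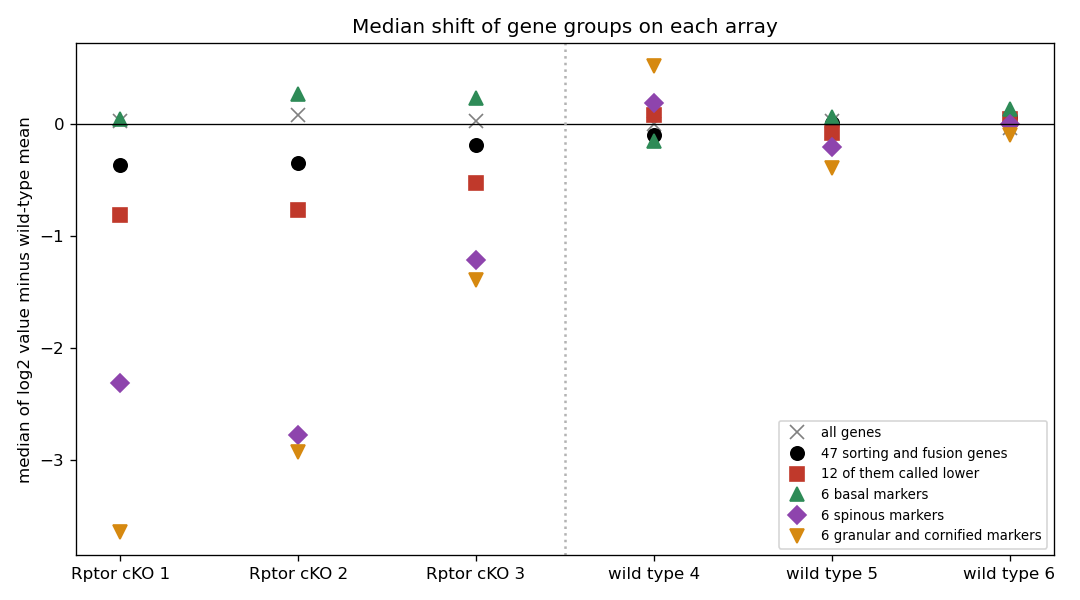
Median of the log2 value minus the wild-type mean (y axis) on each array (x axis) for all genes, the 47 sorting and fusion genes, the 12 of them called lower, and markers of 3 epidermal layers. Spinous and granular markers lie furthest below 0 on the Rptor cKO arrays, and the sorting and fusion genes lie between them and the median of all genes.

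Markers of other cell types of a skin sheet also differed between the groups. Of 5 measured fibroblast markers, 4 were higher (Col1a1, Col3a1, Dcn and Lum), with a mean level of 6.27 to 6.91 in Rptor cKO and 5.65 to 5.90 in wild type. Lum read 3.56 to 3.82 on the wild-type arrays, close to or below the median negative control. Of 5 measured Langerhans and macrophage markers, 3 were lower (Csf1r, Ptprc and Cx3cr1), and Cd207 and Adgre1 were not called. Their mean level was 4.38 to 4.64 in Rptor cKO and 4.84 to 5.03 in wild type. Ptprc read 3.35 to 3.52 on the Rptor cKO arrays, below the median negative control of those arrays (3.85 to 4.11). Pecam1 was the only one of 5 endothelial markers called, as higher. The mean level of that list, 3.73 to 3.89 in Rptor cKO and 3.51 to 3.77 in wild type, was near or below the median negative control. Of 5 Merkel cell markers, Atoh1 was lower, with list means of 4.18 to 4.48 in Rptor cKO and 4.46 to 4.62 in wild type. Their part in the differences of the sorting and fusion genes was not tested.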

How the data were processed

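Epidermal RNA was measured on 6 expression arrays after labelling with the Ambion Expression WT kit, per the labels' protocols. The authors deposited log2 values per probe set, and per the submitters' processing notes they used RMA, Partek and the build mm10, with no versions given. RMA brings arrays close to a common distribution, so a general change of RNA per cell cannot be seen. The medians over all probe sets still differed a little, at 4.22, 4.22 and 4.15 on Rptor cKO arrays 1 to 3. They were 4.16, 4.14 and 4.08 on wild-type arrays 4 to 6. Batches could not be tested, since the labels name neither slide nor scan date.

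Of 72688 probe sets, 6732 were controls, 30604 named 1 gene, 2146 several and 33206 none. Symbols were updated through Entrez ID or a unique synonym of RefSeq (GRCm38.p6), 1135 in all, which gave 30063 genes. Coordinates are from the same RefSeq table. The fit used limma 3.58.1 (lmFit, eBayes; R 4.3.3) on all 6 arrays, with group as the sole term, two-sided, with Benjamini-Hochberg adjustment over 30063 genes and no filter. Standard errors (SE) are the moderated ones. The procedure was tested on simulated data. The number of arrays limits the precision. Python 3.11.15, pandas 2.3.3 and matplotlib 3.10.9 were used for the rest.

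The members and lists were chosen with earlier results of these data known. Values on every array are given for each member past the threshold and, in complexes with none, for the member with the smallest p, and other members by their differences. Array values of Ap3b1, Vamp7, Ap1m2 and Snap29, and the related genes named without a call, were added after their values were seen. Alternatives were array medians subtracted, quantile normalization, a filter on dim probe sets, the mean of a gene's probe sets, an intensity trend with a robust prior, an ordinary linear model, each array left out, and the male arrays alone.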

Additional observations from a re-analysis of the deposited data

How the results depend on the processing

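No paired analysis was possible because the labels give no litter or pairing, although the wild-type embryos are littermates. Litter is therefore not in the fit. With an ordinary linear model without moderation, 0 members were lower and 0 higher (18 and 2 at an unadjusted p under 0.05), against 2 and 6 of all genes. With the male arrays alone, which set Rptor cKO array 2 against the wild type and take its spread from the wild-type arrays, 4 members were lower and 0 higher (17 and 2 at an unadjusted p under 0.05), with a member median of -0.35, and 625 of all genes were lower and 242 higher. With array medians subtracted, 585 genes were higher and 1825 lower, a split of 75.7% lower against 62.1% as reported. Leaving out each array in turn gave 4 to 10 members lower and 1 to 2 higher, and 623 to 1629 genes lower and 277 to 853 higher. These fits all hold fewer arrays than the main one, and their counts differed with the array left out. Without Rptor cKO array 2, 623 genes were lower and 277 higher, and without wild-type array 5, 1629 and 785. The cause of these differences was not tested. Members called lower numbered 8 to 13 under the other 5 alternatives, with 2 higher in each. Quantile normalization ended the calls of Vps33a, Plekhm1, Vamp8 and Nagpa. The intensity trend with a robust prior ended those of Bloc1s2, Vamp8 and Nagpa. Subtracting array medians ended that of Ap3s1, and the mean of a gene's probe sets that of Vti1b. None of the 14 called members changed sign in any of 13 alternatives. This direction is fixed by groups that do not overlap wherever arrays are left out. 5 members changed sign in at least 1 alternative (Hps4, Hps6, Sorl1, Vac14 and Vps18), and none of them was called. Ap3b1, Stx7, Vamp7 and Vps39 gained a call in at least 1. The median over all genes was 0.050 as reported and -0.022 with array medians subtracted.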
